A study of Mus musculus with 18 samples.

Results

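The 37 genes of the mitochondrial genome were described in wt1-SAM brown adipocytes, out of 54347 genes in the count table. They comprise 13 protein-coding genes, 2 rRNA genes and 22 tRNA genes. The table gives plain symbols such as ND1 or COX1 for the 13 protein-coding genes and no symbol for the other 24, so the members were found by gene ID and are named here by their reference symbols, which begin with mt-. All 37 were found. In the mouse genome build GRCm38, 28 lie on the plus strand of chromosome M and 9 on the minus strand.

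The cells are an immortalized mouse brown preadipocyte line that stably carries the CRISPR activation system SAM, and all groups share this background. The line was differentiated and reverse transfected on day 4 with 1.4 µl of a 10 µM locked nucleic acid gapmer (LNA), an antisense oligonucleotide. The gapmers were ctrlA, which has no target, and LNA1 and LNA2, both directed against the long non-coding RNA Gm15551. Each was left unstimulated or was given 1 µM of the β-adrenergic agonist isoproterenol for 24 h before harvest on day 7. This gave 6 groups of 3 libraries of polyadenylated RNA with replicate numbers 2, 3 and 4. Whether the numbers stand for separate cultures is not stated, so p-values measure the spread between these libraries, which may be technical.

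Mitochondrial DNA is transcribed from both strands as long precursors by the polymerase Polrmt together with Tfam. The tRNAs lie between most of the mRNAs and rRNAs, and their excision releases the other transcripts. The mRNAs are then polyadenylated by Mtpap and stabilised by the pair Lrpprc and Slirp. All 13 proteins are subunits of the respiratory chain or ATP synthase, which they form together with subunits encoded in the nucleus. Brown adipocytes are rich in mitochondria, and on adrenergic stimulation Ucp1 lets protons pass back across the inner membrane so that respiration yields heat.

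The sequences of 2 tRNA genes are shown because these genes gave the differences between LNAs described further on, and the start of mt-Nd3 because it holds the 1 base that differs from a nuclear copy over the 345 bases that align. The tRNA for proline, mt-Tp, lies at chrM:15356-15422 on the minus strand, and the tRNA for threonine, mt-Tt, directly beside it at chrM:15289-15355 on the plus strand. The shown bases of mt-Nd3, an NADH dehydrogenase subunit, are at chrM:9459-9518 on the plus strand, and the capital marks that base. Genes are written 5′ to 3′ on their own strand.
mt-Tp: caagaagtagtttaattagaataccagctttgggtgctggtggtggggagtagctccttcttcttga
mt-Tt: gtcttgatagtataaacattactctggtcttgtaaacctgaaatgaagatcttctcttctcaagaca
mt-Nd3, first 60 bases: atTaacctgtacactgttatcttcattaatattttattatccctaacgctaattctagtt

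The 3 gapmers are given because they define the groups. Capitals mark the longest stretch that could pair with the sense sequence of an annotated mitochondrial gene. Where genes tie, as for ctrlA and LNA1, the stretch for a single gene is marked. Opposite-strand RNA and sequence between genes were not searched.
ctrlA: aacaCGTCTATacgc
LNA1: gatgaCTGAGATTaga
LNA2: AAGTAGCACggcgttg
LNA1 and LNA2 were complementary to Gm15551 over all 16 bases. Against the sense sequences of the mitochondrial genes the longest complementary stretch was 7 bases for ctrlA, 8 for LNA1 and 9 for LNA2, the last in mt-Nd6. LNA2 could pair with mt-Tp over 5 bases, and ctrlA and LNA1 alike with mt-Tt over 5.

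Library totals ranged from 9167560 to 19723021 counts, of which 313089 to 1728637 were mitochondrial. The targeted RNA Gm15551 was close to the limit of detection, with 2 to 14 counts in the ctrlA libraries, 1 to 12 with LNA1 and 1 to 13 with LNA2, so the ranges overlapped and these counts do not check the labels. The adipocyte markers were present in every library, and their summed level was 13178 to 23256 CPM (counts per 1e+06 counts of the library) in unstimulated and 9613 to 17269 CPM in stimulated cells. Most of this sum was Fabp4, at 7081 to 20719 CPM over all libraries, while Ucp1 was at 0.621 to 16.5 CPM. The 8 preadipocyte markers summed to 16.7 to 41.6 CPM unstimulated and 26.8 to 75.8 CPM with isoproterenol, and 4 of them (Dlk1, Dpp4, Cd55 and Zfp521) stayed under 1 CPM everywhere. With isoproterenol, where 3.2% of all genes were called, 2 of the 8 adipocyte markers were called higher by edgeR (Ucp1 and Cidea, the latter with a log2 fold change of 1.27) and 1 lower (Adipoq, -0.71). Of the 4 preadipocyte markers tested, 1 was called higher (Ly6a, 1.58), and the median of the 4 was -0.10 with the lowest at -0.26. Their part in the results was not tested. In bulk RNA, fewer cells of a type and less RNA per cell cannot be told apart.

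Before any treatment was considered, the libraries already differed by replicate number. In replicate number 2, mitochondrial genes took 7.86 to 9.79% of all counts, against 2.56 to 4.97% in number 3 and 3.88 to 4.49% in number 4. The excess concerned every protein-coding member: the mean level in replicate number 2 was between 1.95-fold (mt-Nd5) and 2.58-fold (mt-Co2) that of the other numbers, with a median of 2.41-fold. The rRNAs differed more, at 3.45-fold for mt-Rnr1 and 4.10-fold for mt-Rnr2. Subunits encoded in the nucleus were also higher in replicate number 2, by a median of 1.61-fold in complex I, 1.54-fold in complex III, 1.87-fold in complex IV and 1.66-fold in complex V. Of the 16 genes of mtDNA transcription and replication, 13 were higher in replicate number 2 (median 1.45-fold), and Polrmt was the lowest at 0.474-fold. Of the 6 nuclear regulators of mitochondrial genes 3 were higher, with a median of 0.803-fold and the coactivator Pprc1 the lowest at 0.412-fold. The adipocyte markers moved with the replicate number as well: 3 of 8 were higher in number 2 (median 0.893-fold), from 0.515-fold for the lipase Lipe to 1.73-fold for the fatty acid binding protein Fabp4. The summed preadipocyte markers had a median of 54.4 CPM in number 2, 25.4 in number 3 and 28.0 in number 4, with Ly6a at 2.75-fold. The part of these markers in the mitochondrial values was not tested. CT010467.1, which encodes ribosomal RNA in the nucleus, made up 2.88 to 14.3% of the libraries of replicate number 2 and 0.285 to 1.04% of the remaining libraries. Treatments were for this reason also compared within each replicate number.

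A single library stood apart, LNA2 with isoproterenol in replicate number 3. It had the lowest mitochondrial share, 2.56%, and the lowest share of rRNA among mitochondrial counts. It held 0.227% mt-Nd6 and 0.106% mt-Atp8 of its mitochondrial counts, where the other 17 libraries held 0.735 to 1.16% and 0.263 to 0.399%. It also held less mt-Nd2 (2.30%, against 3.72 to 5.22%) and mt-Nd4 (5.16%, against 5.96 to 7.17%). In the opposite direction, it held 10.9% mt-Co3 and 11% mt-Cytb, where the others held 6.58 to 7.59% and 8.0 to 9.30%. The shares of mt-Nd1, mt-Co1, mt-Atp6, mt-Nd4l and mt-Nd5 lay within the range of the others. It also stood apart across the nuclear genes. Against the other 11 libraries of replicate numbers 3 and 4, it was above all of them in 23.6% and below all of them in 23.9% of the 14949 genes tested. The same count was not made for any other library, so these shares have no reference beside them. Among nuclear subunits of the same complexes the library that stood apart was above in 15 of 36 (complex I), 5 of 9 (III), 8 of 13 (IV) and 7 of 17 (V) and below in 5, 1, 1 and 4. Of the 16 genes of mtDNA transcription and replication 5 were above and 9 below, and of the 19 genes of mitochondrial RNA processing and decay 5 were above and 5 below. Cox4i1, a subunit of complex IV, was at 1915 CPM with TMM factors (scaling factors between libraries) there and at 1077 to 1353 in the others, and Ndufc2 of complex I at 35.7 against 43.0 to 62.1. The fits that follow were repeated without this library, a choice made after seeing the data where the replicate number was also in the model, and more genes, 15361 with 30 members, then passed the filter.

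**Figure D1:**
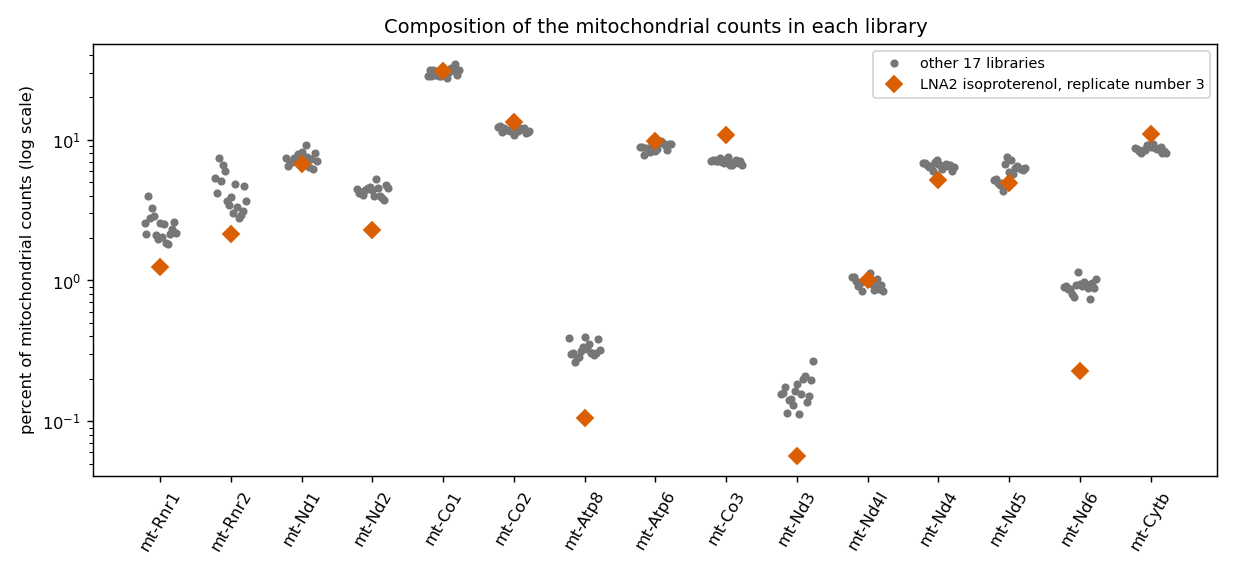
Percent of all mitochondrial counts (vertical axis, log scale) taken by each rRNA and protein-coding gene, in genome order. Grey points are 17 libraries and the orange diamond is LNA2 with isoproterenol, replicate number 3, which lies outside the others for mt-Nd6 (0.227%), mt-Atp8 (0.106%) and mt-Co3 (10.9%) but not for mt-Co1.

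By level per kilobase the first 3 places were the same in every library, while places further down changed between libraries. Lengths are those of the annotated genes, and the libraries hold polyadenylated RNA. The order is therefore one of captured reads and need not be that of the amounts in the cells. mt-Co1, the catalytic subunit of cytochrome c oxidase, was first in 18 of 18 libraries with 10978 CPM per kb (SD 4506, n = 18), mt-Co2 was next with 9747 and mt-Atp6, the proton channel subunit of ATP synthase, followed with 7321. mt-Co3 followed at 5145 CPM per kb and exceeded mt-Nd1 (4291) in 17 of 18 libraries. mt-Nd1 and mt-Cytb (4255), the cytochrome b of complex III, could not be ranked, since mt-Nd1 was the higher in only 10 libraries. The complex I genes mt-Nd4 (2671), mt-Nd2 (2329), mt-Nd4l (1834) and mt-Nd5 (1731) came next, and mt-Nd4l exceeded mt-Nd5 in 9 of 18 libraries. The rRNAs of the mitochondrial ribosome were at 1668 (mt-Rnr2) and 1502 CPM per kb (mt-Rnr1). mt-Nd5 exceeded mt-Rnr2 in 13 of 18 libraries, and every exception was in the replicate number with the highest mitochondrial shares. mt-Nd6, the protein-coding member on the minus strand, reached 956 CPM per kb, mt-Atp8 860 and mt-Nd3 255, the last being the lowest of these 15 in all 18 libraries.

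The low value of mt-Nd3 has to be read with its nuclear copy. Gm28438, an unprocessed pseudogene, aligned to mt-Nd3 over 345 bases with 1 mismatch, T3C, counted from the 5′ end of mt-Nd3. It was given more counts than mt-Nd3 in 18 of 18 libraries, namely 64.6 to 82.9% (median 78.2%) of the sum of both. With the copy added, mt-Nd3 stood at 1098 CPM per kb (SD 449, n = 18). For other members the copies took less: Gm10925 took 0 to 15.2% of its sum with mt-Atp6, and Gm28439 took 0 to 6.84% of its sum with mt-Nd4. Gm28661 took 10.6% of its sum with mt-Co2 in LNA2 with isoproterenol, replicate number 3, and at most 2.79% elsewhere. Since such reads are divided by probability, the levels of mt-Nd3, mt-Atp6, mt-Co2 and mt-Nd4 are uncertain. Of the words of 31 bases in mt-Tp, 0% occur in nuclear transcripts. Neighbouring members also overlap: mt-Atp8 and mt-Atp6 share 43 bases, mt-Nd4l and mt-Nd4 share 7, and mt-Nd5 and mt-Nd6 share 14 on opposite strands. The library kit is not stated to keep the strand, in which case reads from opposite-strand neighbours cannot be told apart.

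The tRNAs made up only 0.0814 to 0.217% of mitochondrial counts (median 0.148%). One of them, mt-Tp, held 52.8 to 72.6% of these tRNA counts. Of the 22 tRNA genes, 10 averaged under 10 counts per library, and mt-Tv and mt-Td had at most 3 counts in any library. In the statistical fit 28 members were tested, namely the 13 protein-coding genes, both rRNAs and 13 tRNAs. The other 9 tRNAs were not tested because of their low counts. The libraries were made from polyadenylated RNA. Whether reads given to tRNA genes come from excised tRNAs or from longer transcripts that hold them was not tested. Fitted log2 fold changes of the tested tRNAs ran from -0.44 (mt-Tc) to 0.25 (mt-Tl1) with isoproterenol, from -0.47 (mt-Tt) to 0.33 (mt-Tm) with LNA1 and from -0.68 (mt-Te) to -0.05 (mt-Tn) with LNA2.

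The first question was whether isoproterenol changes the mitochondrial transcripts, given that Ucp1 rose (log2 fold change 3.51, SE 0.17; adjusted p = 1.12e-08 by edgeR's quasi-likelihood test with Benjamini-Hochberg adjustment). Their summed share was not moved in 1 direction. In ctrlA cells it was 8.76, 4.46 and 4.20% unstimulated in replicate numbers 2, 3 and 4, and 8.90, 4.51 and 4.01% with isoproterenol. With LNA1 it was 8.51, 4.24 and 4.03% unstimulated and 9.79, 3.67 and 3.94% stimulated. With LNA2 it was 8.62, 4.97 and 3.88% unstimulated and 7.86, 2.56 and 4.49% stimulated. Within the 9 pairs of the same LNA and number, 4 shares were higher and 5 lower after stimulation, with a mean difference of -0.22 percentage points (SD 1.02, range -2.41 to 1.28). Without the library that stood apart the mean was 0.058 points, with 4 pairs higher and 4 lower. Where CT010467.1 was left out of the library totals, 3 pairs were higher and 6 lower with a mean of -0.372 points (SD 0.972), and the mean without that library was -0.113 points, opposite in sign to the 0.058 points of the full totals.

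**Figure D2:**
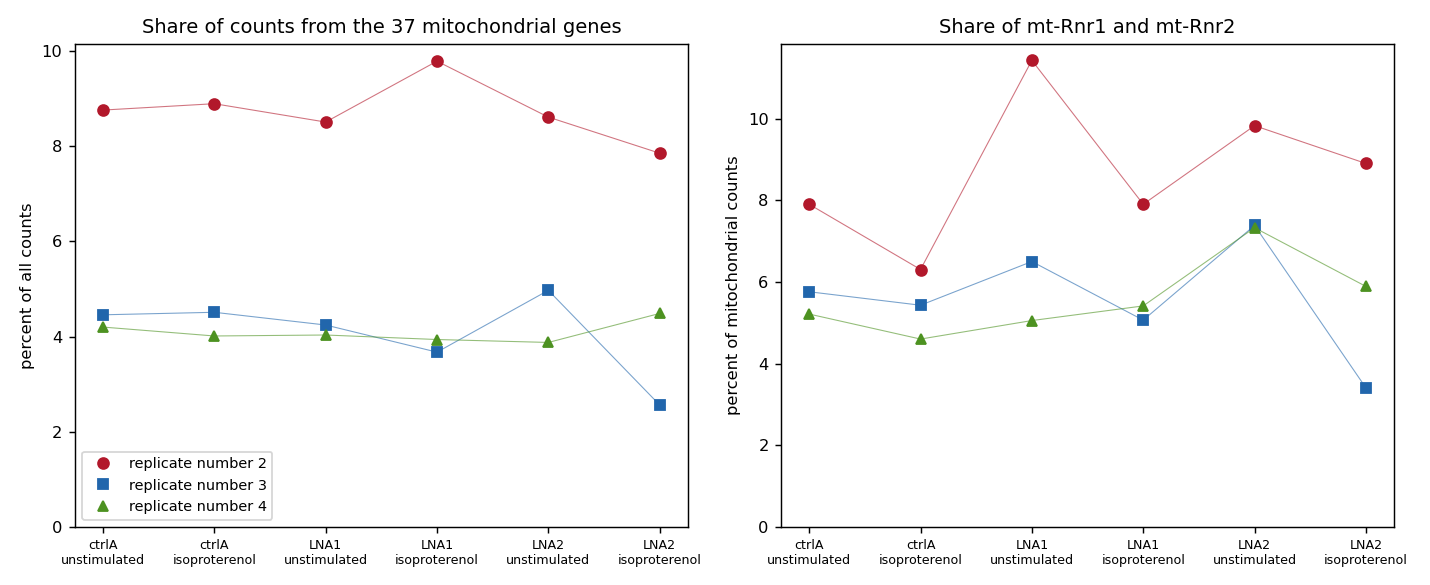
Share of counts from the 37 mitochondrial genes in percent of all counts (left) and of both rRNAs in percent of mitochondrial counts (right) for the 6 groups. Points are single libraries and thin lines join libraries of 1 replicate number, of which number 2 lies at 7.86% or more on the left in every group.

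Of the 28 members tested, 0 were called for isoproterenol, averaged over LNAs (adjusted p under 0.05 and absolute log2 fold change above 0.5), where 3.2% of all 14949 genes were called. An unadjusted p under 0.05 was reached by 0 members, and DESeq2 likewise called 0. The lowest adjusted p was 0.82 by edgeR's quasi-likelihood test. The median log2 fold change of the members was -0.09, against -0.0021 for all genes, and 12 of 13 protein-coding genes lay below 0. Without LNA2 with isoproterenol, replicate number 3, the median was 0.025 and 6 of 13 lay below 0. The 95% intervals of the protein-coding genes reached from -1.13 to 0.76, so changes of about the size of the threshold were not resolved. With replicate number as a block the intervals narrowed and 0 members were called, where 7% of all genes were. In that fit mt-Rnr2 was at -0.44 (SE 0.17, adjusted p = 0.069), mt-Nd1 at -0.27 (SE 0.11, adjusted p = 0.075) and mt-Rnr1 at -0.37 (SE 0.15, adjusted p = 0.089), by edgeR with Benjamini-Hochberg adjustment. Without the library that stood apart, the blocked value of mt-Rnr2 was -0.30 (SE 0.11, adjusted p = 0.042, edgeR), under the limit on the fold change. Those of mt-Nd1 and mt-Rnr1 were then -0.18 (adjusted p = 0.068) and -0.24 (adjusted p = 0.052, both edgeR).

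The composition of the mitochondrial counts was compared within the same 9 pairs. Several genes showed no shared direction, such as mt-Co3, whose share was higher in 5 pairs and lower in 4, or mt-Nd6, which was higher in 4 and lower in 5. These values are shares of a whole, so a rise of 1 gene lowers the others, and they are given as a description. mt-Co1 took 28.5, 28.6 and 30.4% of mitochondrial counts in unstimulated ctrlA cells (replicate numbers 2, 3 and 4) and 31.1, 28.6 and 32.4% with isoproterenol. With LNA1 its share went from 28.6, 30.3 and 31.1% to 31.5, 29.8 and 34.8%. With LNA2 it went from 28.7, 27.3 and 29.1% to 31, 31 and 31.5%. The share of mt-Co1 was thus higher in 7 of 9 pairs, by a mean of 2.12 points (SD 1.49) and of 1.92 without the library that stood apart, both exceptions being in replicate number 3. Relative to all counts, however, its fitted log2 fold change was 0.02 (SE 0.35), and -0.02 with the replicate block.

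mt-Nd1, a membrane subunit of complex I, took a lower share after stimulation in 8 of 9 pairs. In ctrlA cells it went from 7.48, 7.87 and 7.48% to 6.46, 7.51 and 6.43% in replicate numbers 2, 3 and 4, and with LNA1 from 6.89, 8.14 and 7.29% to 7.00, 7.48 and 6.19%. With LNA2 it went from 7.44, 9.17 and 8.11% to 7.24, 6.68 and 7.09%. The mean difference was -0.865 points (SD 0.750) and -0.661 without the library that stood apart. As a share of protein-coding mitochondrial counts it was lower in 9 of 9 pairs, with a mean difference of -1.05 points, and of -0.804 without that library. mt-Nd2, another complex I subunit, was lower in 7 of 9 pairs, with a mean difference of -0.507 points, and of -0.206 without that library.

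Both rRNAs took a lower share after stimulation in 8 of 9 pairs. mt-Rnr2, the large rRNA, went from 5.32, 3.67 and 3.35% to 4.15, 3.47 and 2.78% in ctrlA cells, and from 7.48, 3.94 and 2.90% to 5.13, 3.02 and 3.10% with LNA1. With LNA2 it went from 6.58, 4.86 and 4.72% to 6.04, 2.15 and 3.70%. Together the rRNAs differed by -1.50 points (SD 1.42, n = 9), or -1.19 without the library that stood apart. The share of CT010467.1, the nuclear rRNA gene, was lower in 7 of the 9 pairs as well, by a mean of 1.59 points of all counts (SD 2.71), and its part in this result was not tested. Among the tRNAs, mt-Ts1, a serine tRNA on the minus strand, was the one with a higher share in 9 of 9 pairs, at 0.00302 to 0.00519% unstimulated and 0.00351 to 0.00779% with isoproterenol. It was singled out after its values were seen, and its fitted log2 fold change of 0.21 did not pass the test (SE 0.38, adjusted p = 0.92; with the block adjusted p = 0.28, edgeR).

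**Figure D3:**
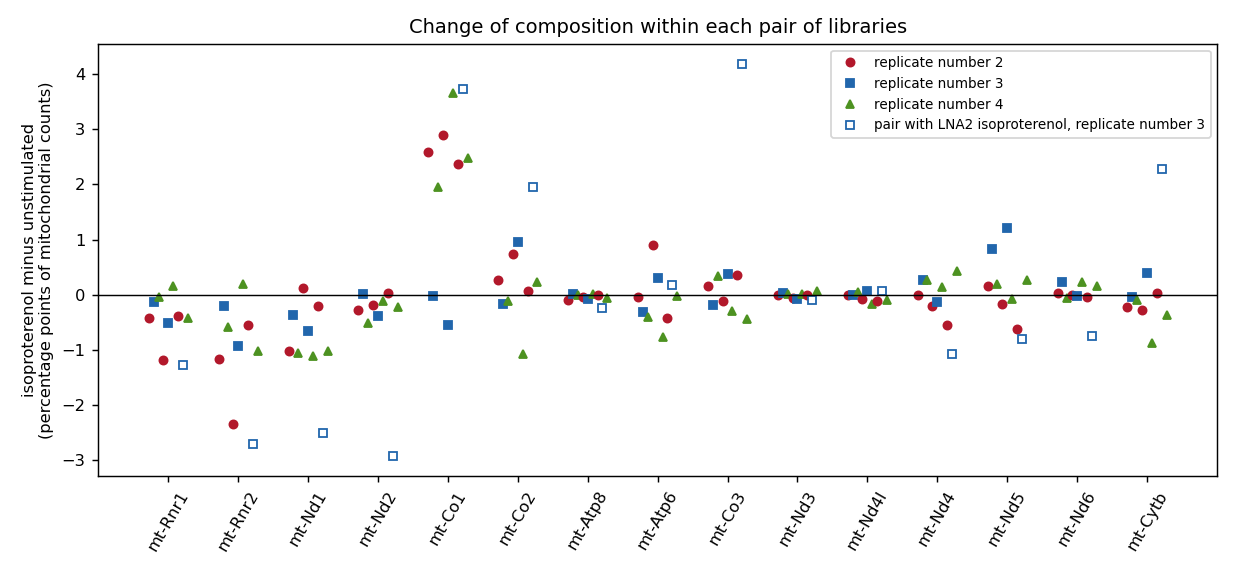
Difference with isoproterenol in percentage points of mitochondrial counts (vertical axis) for each rRNA and protein-coding gene, with 1 point for each of 9 pairs of libraries that share LNA and replicate number. mt-Co1 lies above 0 in 7 pairs and mt-Nd1, mt-Rnr1 and mt-Rnr2 below 0 in 8, and the open squares mark the pair that holds the library standing apart.

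The second question was whether the gapmers against Gm15551 change these transcripts. LNA1 and LNA2 were compared with the same ctrlA libraries, so the comparisons are not independent of each other. The summed preadipocyte markers were at 16.7 to 67.1 CPM with ctrlA, 21.5 to 75.8 with LNA1 and 23.3 to 73.2 with LNA2. Of the 4 of them tested, 1 was called higher with each LNA, namely Pdgfra (log2 fold change 0.89, adjusted p = 0.0074 with LNA1; 0.71, adjusted p = 0.012 with LNA2, both by edgeR). Of all genes, 0.442% were called with LNA1 and 1.42% with LNA2. The lowest of the 4 markers, Cd34, was at -0.34 with LNA1 and -0.67 with LNA2. With the replicate block Ly6a was called higher as well, with LNA2 against ctrlA (0.66) and against LNA1 (0.51), the latter only with the library that stood apart included. The summed adipocyte markers were at 11225 to 23256 CPM with ctrlA (median 15663), 9613 to 19974 with LNA1 (median 13708) and 10213 to 19592 with LNA2 (median 13781). Of the 8 adipocyte markers 0 were called with either LNA, and their median log2 fold change was -0.11 with LNA1 and -0.13 with LNA2. With the block 2 of them were lower with LNA2 at an adjusted p under 0.05, where 11.2% of all genes were, namely Pparg, the master regulator of adipocyte genes (-0.20, adjusted p = 0.0049), and Fabp4 (-0.21, adjusted p = 0.030, both edgeR), and 1 with LNA1, the lipid droplet protein Plin1 (-0.23), where 4.03% of all genes were. The part of these markers in the comparisons was not tested. With LNA1 the mitochondrial share was lower than in ctrlA in 5 of 6 pairs of libraries, by a mean of 0.109 points (SD 0.561). Where CT010467.1 was left out of the library totals the mean turned to 0.117 points above ctrlA, within the SD of 0.760. Of 28 members 0 were called, where 0.442% of all genes were, and 0 had an unadjusted p under 0.05 in edgeR or DESeq2. The median log2 fold change was -0.06 (all genes -0.02), with 11 of 13 protein-coding genes below 0 and their 95% intervals reaching from -1.23 to 0.96.

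Among the members tested, the one that differed most regularly with LNA1 was mt-Tt, the threonine tRNA. Its level in replicate numbers 2, 3 and 4 was 8.17, 4.55 and 7.18 CPM (normalised by TMM) in unstimulated ctrlA cells and 6.54, 2.93 and 4.07 CPM with LNA1. With isoproterenol it was 9.27, 5.73 and 6.64 CPM in ctrlA and 6.65, 4.00 and 6.04 CPM with LNA1. It was lower with LNA1 in 6 of 6 pairs, by a mean of 0.48 on the log2 scale (SD 0.24), although the ranges of both groups overlapped across replicate numbers. The fitted log2 fold change was -0.47 (SE 0.29, adjusted p = 1, edgeR's quasi-likelihood test), and with the replicate block -0.48 (SE 0.13, adjusted p = 0.036), just under the limit on the fold change. In that blocked fit 0 members were called, where 2.43% of all genes were, and 4.03% of all genes were lower at an adjusted p under 0.05. mt-Tt averaged 79.1 counts per library, so each value rests on few reads, and whether they come from the excised tRNA was not tested. With LNA2 its log2 fold change against ctrlA was -0.08 (SE 0.28). Tested directly, LNA2 against LNA1 was at 0.36 with the block (SE 0.13, adjusted p = 0.080, edgeR) and at 0.46 (adjusted p = 0.014) without LNA2 with isoproterenol, replicate number 3.

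Shares of mitochondrial counts were also compared between LNA1 and ctrlA, as a description. mt-Co1 took a higher share than in ctrlA in 6 of 6 pairs (mean 1.07 points, SD 0.887), as did the small rRNA mt-Rnr1 (0.553 points, SD 0.442). mt-Atp6 took a lower share in 6 of 6 pairs (-0.696 points, SD 0.386), and mt-Nd2 likewise (-0.345 points, SD 0.231). None of these 4 genes passed the test relative to all counts. Their blocked log2 fold changes were -0.03 for mt-Co1, opposite in sign to its share (adjusted p = 0.92), 0.24 for mt-Rnr1 (adjusted p = 0.51), -0.19 for mt-Atp6 (adjusted p = 0.34) and -0.20 for mt-Nd2 (adjusted p = 0.62), by edgeR. The log2 ratio of mt-Rnr2 to mt-Rnr1 was lower with LNA1 in 6 of 6 pairs, by a mean of 0.20 (SD 0.12), and LNA2 exceeded LNA1 in this ratio in 6 of 6, by 0.26 (SD 0.12). The reads of mt-Atp6 are partly divided with Gm10925, as stated above. The nuclear rRNA gene CT010467.1 took 14.3, 0.544 and 0.429% of all counts unstimulated with LNA1 (replicate numbers 2, 3 and 4). With ctrlA it took 5.80, 0.564 and 0.285%. With isoproterenol it took 7.44, 1.04 and 0.380% with LNA1 and 3.61, 0.502 and 0.384% with ctrlA. Its part in the share of mt-Rnr1 was not tested.

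With LNA2 all protein-coding members had fitted values below 0 when every library was used, without passing the test. The mitochondrial share was lower than in ctrlA in 4 of 6 pairs, by a mean of 0.412 points (SD 0.947), and by 0.105 without the library that stood apart. Where CT010467.1 was left out of the totals it was lower in 3 of 6, with a mean difference of -0.389 points (SD 0.986). Of 28 members 0 were called, where 1.42% of all genes were, and 0 reached an unadjusted p under 0.05 in edgeR or DESeq2. The median log2 fold change was -0.21 against -0.02 for all genes. All 13 protein-coding genes were below 0 and both rRNAs above, with 95% intervals of the protein-coding genes from -1.47 to 0.83. Without the library that stood apart the median was -0.05, and 10 of 13 protein-coding genes were below 0. In the blocked fit the median went from -0.21 to -0.12 without it, and 13 and 11 of 13 were below 0. The lowest adjusted p was 0.75, that of mt-Te, a glutamate tRNA next to mt-Nd6 (log2 fold change -0.68, SE 0.46, edgeR).

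With the replicate number as a block, and every library used, 1 of the 28 members was called with LNA2, and this was mt-Tp. The block called 5.53% of all genes, 1.75% in the lower direction. In unstimulated cells mt-Tp stood at 85.8, 43.0 and 42.7 CPM with ctrlA in replicate numbers 2, 3 and 4, at 91.8, 35.0 and 40.3 CPM with LNA1 and at 77.8, 29.2 and 32.7 CPM with LNA2. With isoproterenol it stood at 114, 42.2 and 53.0 CPM with ctrlA, at 102, 32.7 and 50.2 CPM with LNA1 and at 73.7, 12.5 and 39.8 CPM with LNA2. LNA2 was below ctrlA, and also below LNA1, in 6 of 6 pairs of the same replicate number and stimulation, while the groups overlapped across replicate numbers. The paired difference from ctrlA averaged -0.65 on the log2 scale (SD 0.57, range -1.76 to -0.14), and -0.43 without the library that stood apart. Without the block, the fit gave -0.52 (SE 0.44, adjusted p = 0.85), and with it -0.59 (SE 0.14, 95% interval -0.90 to -0.28, adjusted p = 0.0087), by edgeR's quasi-likelihood test with Benjamini-Hochberg adjustment. Without LNA2 with isoproterenol, replicate number 3, the blocked value was -0.43 (SE 0.07, adjusted p = 0.00058, edgeR), which is under the limit on the fold change, so the call rests on that library. mt-Tp lies on the minus strand beside mt-Tt and the control region, and since the strand is not stated to be kept, its reads cannot be told apart from those of the opposite strand over it. Whether the reads of mt-Tp come from the excised tRNA was not tested. LNA2 against LNA1 was at -0.44 with the block (adjusted p = 0.052, edgeR), and at -0.29 (adjusted p = 0.016) without that library.

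**Figure D4:**
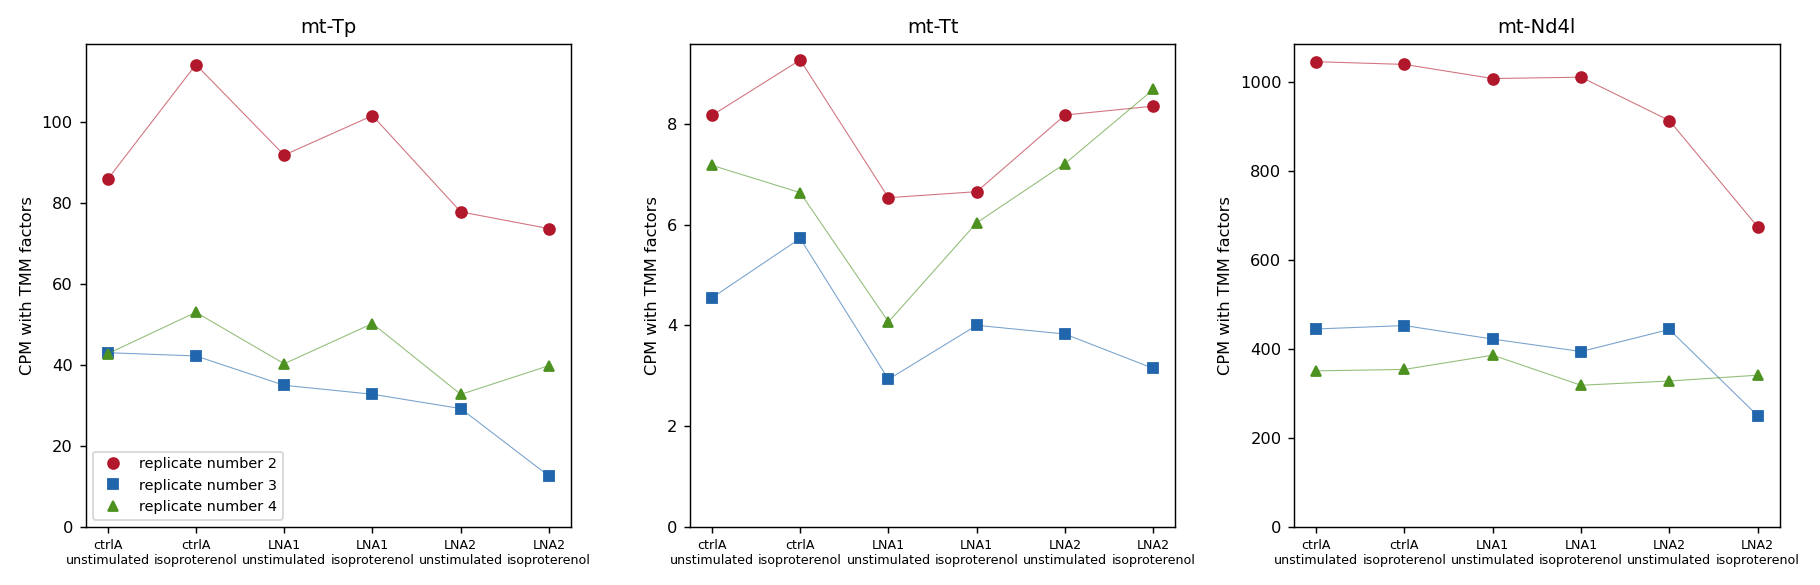
Levels of mt-Tp, mt-Tt and mt-Nd4l in CPM with TMM factors (vertical axes, from 0) for the 6 groups, with points for single libraries and thin lines joining libraries of 1 replicate number. Within each number mt-Tp is lower with LNA2 than with ctrlA at the same stimulation, and mt-Tt is lower with LNA1 than with ctrlA.

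A smaller difference was seen in mt-Nd4l, a short complex I subunit read from the same mRNA as mt-Nd4. In unstimulated cells it was at 1046, 445 and 351 CPM with ctrlA and at 913, 444 and 328 CPM with LNA2, and with isoproterenol at 1040, 452 and 354 CPM with ctrlA and at 675, 250 and 341 CPM with LNA2. All 6 pairs were lower, 1 of them by only 0.0035 on the log2 scale. The blocked log2 fold change was -0.29 (SE 0.09, adjusted p = 0.027, edgeR), under the limit on the fold change, in a fit that gave 11.2% of all genes as lower at that p. Without the block the value was -0.34 (SE 0.43). Without the library that stood apart the blocked value was -0.22 (adjusted p = 0.034, edgeR). Further blocked values were -0.39 for mt-Nd5 (adjusted p = 0.053), -0.35 for mt-Nd4 (adjusted p = 0.072) and -0.20 for mt-Cytb (adjusted p = 0.069), by edgeR with Benjamini-Hochberg adjustment. Without that library they were -0.25 (adjusted p = 0.051), -0.21 (adjusted p = 0.085) and -0.15 (adjusted p = 0.11, edgeR).

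Within the mitochondrial counts, mt-Nd4 and mt-Nd5 took a lower share with LNA2 than with ctrlA in 6 of 6 pairs. mt-Nd5 went from 5.13, 6.71 and 6.27% in unstimulated ctrlA cells (replicate numbers 2, 3 and 4) to 4.95, 5.70 and 6.08% with LNA2. With isoproterenol it went from 5.30, 7.53 and 6.48% to 4.34, 4.90 and 6.34%. The mean difference was -0.854 points for mt-Nd5 and -0.768 for mt-Nd4, and -0.497 and -0.519 without the library that stood apart. The rRNA share was higher with LNA2 in 5 of 6 pairs, the exception being that library, by a mean of 1.26 points (SD 1.67), and by 1.91 points over the remaining 5. CT010467.1 took 8.31, 0.688 and 0.381% of all counts unstimulated with LNA2, against 5.80, 0.564 and 0.285% with ctrlA. With isoproterenol it took 2.88, 0.378 and 0.325% with LNA2, against 3.61, 0.502 and 0.384% with ctrlA. Its part in the rRNA share was not tested.

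LNA2 and LNA1 were also compared directly. Of 28 members 0 were called, where 0.923% of all genes were, with 0 at an unadjusted p under 0.05 in edgeR and DESeq2. All 13 protein-coding genes were lower with LNA2 in this fit without the block, but 10 of 13 when libraries were scaled by their totals, 7 of 13 without replicate number 2 and 8 of 13 without LNA2 with isoproterenol, replicate number 3. With the block 0 members were called, where 4.11% of all genes were, and 12 of 13 were lower, or 7 of 13 without that library. The response to isoproterenol was not shown to differ between LNAs. The interactions gave 0 of 28 members for LNA1 and for LNA2, where edgeR called 0% of all genes for each. An unadjusted p under 0.05 was reached by 105 and 116 of all genes and by 0 members, and DESeq2 called 0 and 2 genes, of which 0 were members. With the block 1 member reached it, mt-Nd4l for LNA2 (-0.39, adjusted p = 0.81, edgeR), and 0 of 30 did without the library that stood apart. When all 6 groups were tested jointly (adjusted p under 0.001), 0 of 28 members passed, where 0.455% of all genes did. With the block 0 of 28 passed as well, where 8.93% of all genes did.

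Nuclear genes that act on or with the mitochondrial transcripts were counted in lists of 36 complex I, 9 complex III, 13 complex IV and 17 complex V subunits, 16 genes of mtDNA transcription and replication, 19 of RNA processing and decay, and 6 regulators. All were tested. In the fits averaged over LNAs or stimulation 1 of them was called, Ppargc1a, the coactivator of mitochondrial biogenesis, which rose with isoproterenol (log2 fold change 0.56, SE 0.09, adjusted p = 0.0015, edgeR), where 3.2% of all genes were called. The comparisons between LNAs called 0 of them, where 0.442% (LNA1), 1.42% (LNA2) and 0.923% (LNA2 against LNA1) of all genes were called. With isoproterenol, Polrmt was at 0.23 (SE 0.26, adjusted p = 0.84; 0.22 with the block, adjusted p = 0.032, edgeR) and Tfam at 0.06 (adjusted p = 0.95, edgeR). In the same comparison Slirp was at -0.08 and Mtpap, the poly(A) polymerase, at -0.13. The medians with isoproterenol were -0.0040 for complex I, 0.10 for III, 0.04 for IV and 0.03 for V, beside -0.0021 for all genes.

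With LNA2, the median log2 fold changes of the nuclear subunits were -0.18 in complex I, -0.09 in III, -0.17 in IV and -0.16 in V, beside -0.21 for the mitochondrial members and -0.02 for all genes, with 0 called. With the block, 20 of 36 complex I, 2 of 9 complex III, 5 of 13 complex IV and 7 of 17 complex V subunits were lower at an adjusted p under 0.05, where 11.2% of all genes were, and 0 passed the fold limit. Without the library that stood apart these counts were 32, 7, 11 and 14, where 13.3% of all genes were. Lrpprc, which stabilises mitochondrial mRNAs, was at -0.26 (SE 0.12, adjusted p = 0.42; with the block adjusted p = 0.0048, edgeR), and Ppargc1a at -0.31 (adjusted p = 0.26; with the block 0.019, edgeR). Tfam was at -0.11, Slirp at -0.10 and Mtpap at -0.12. With LNA1 the medians were -0.14, -0.10, -0.12 and -0.11 for complexes I, III, IV and V, and 7 complex I and 3 complex V subunits were lower with the block, where 4.03% of all genes were. Without that library, which enters this comparison through the shared estimate of spread, the replicate terms and the scaling, 19 complex I, 5 complex III, 8 complex IV and 10 complex V subunits were lower, where 9.32% of all genes were. Esrra, a nuclear receptor that works with Ppargc1a, was called lower with LNA1 in the blocked fit (-0.51, SE 0.08, adjusted p = 0.0011, edgeR), where 0.355% of all genes were called lower.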

How the data were processed

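Polyadenylated RNA of 18 libraries in 6 groups of 3 was sequenced as paired ends (NEBNext Ultra II). The authors used cutadapt for trimming and Salmon for quantification on Gencode transcripts of GRCm38. The deposited values are expected counts per gene, given as whole numbers without scaling. Per the submitters' processing notes bcl2fastq and DESeq2 were also used, and versions are not given in the sources used here. Salmon divides reads between near-identical sequences by probability, so members with nuclear copies carry uncertain counts. Members were found by gene ID in the GENCODE M21 annotation of GRCm38, which also gave coordinates and sequences. LNA sequences are the study's designed oligonucleotides.

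The members and gene lists were chosen with earlier results of these data known. Counts were tested with edgeR 4.0.16 in R 4.3.3 by the quasi-likelihood test on all genes (TMM, filterByExpr with a minimum count of 10 and total of 15, 14949 genes, 1 term per group). Adjustment was by Benjamini-Hochberg over all genes, and a gene was called at an adjusted p under 0.05 and an absolute log2 fold change above 0.5. Interactions had no fold limit, and the joint test used an adjusted p under 0.001. All tests were two-sided. Standard errors and 95% intervals were derived from the F statistic. Summed shares and composition were described within replicate numbers without a test. Nuclear copies were 13 genes that share at least 50 words of 31 bases with a member, of 23 sharing any. The procedure was tested on simulated counts whose replicate numbers differed less than those of the members here. That run cannot show how the fits behave at the differences seen in these members. Named were all protein-coding and rRNA members, tRNAs with a mean of at least 10 counts or a call, called list genes (up to 4 per direction), and Polrmt, Tfam, Lrpprc, Slirp, Mtpap and Ppargc1a.

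Replicate numbers are shared across groups in the labels. Deviations from group means correlated at 0.24 to 0.72 in all 45 pairs of libraries with the same number (median 0.43). In 90 pairs with different numbers they correlated at -0.60 to 0.40 (median -0.44), so the ranges overlapped in part. The numbers were taken to pair the samples, and blocked values are given where they change a call. Alternatives were DESeq2 1.42.0, its size factors, library totals, TMM without mitochondrial genes, no filter, added nuclear copies, and leaving out each library or replicate number 2. A floor of 3 counts corresponds to 0.152 CPM in the deepest library. The reads carry no molecular identifiers.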

Additional observations from a re-analysis of the deposited data

Results flagged for a closer look

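Shares of mitochondrial counts were screened for single libraries far from the rest of their arm (6 libraries of 1 LNA, or 9 of 1 stimulation state) in 80 arm and gene combinations, of which chance flags about 1 in 20, and 12 were flagged. Of these, 11 concern LNA2 with isoproterenol, replicate number 3. In that library mt-Nd2 was at 2.30%, where the nearest other LNA2 library was at 4.41% and the nearest other stimulated library at 3.72%. mt-Atp8 was at 0.106% (nearest 0.280% and 0.263%) and mt-Nd6 at 0.227% (nearest 0.765% in both arms). mt-Co3 was at 10.9% (nearest 7.45% and 7.59%) and mt-Cytb at 11% (nearest 8.69% and 9.30%). mt-Co2 was at 13.5%, where the nearest LNA2 library was at 11.8%. The remaining value was mt-Nd6 at 1.16% in ctrlA with isoproterenol, replicate number 3, where the nearest ctrlA library was at 0.939%.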

How the results depend on the processing

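With LNA2 against ctrlA the number of members called went from 0 to 1 (mt-Tp) with the replicate block (log2 fold change -0.59), with DESeq2 and the replicate block (-0.61) and with the block and nuclear copies added (-0.59). The latter pair was chosen after seeing the data, as was the block without LNA2 with isoproterenol, replicate number 3. The block changed the number of members called in no other comparison. mt-Co1 with isoproterenol changed sign in 4 settings, to -0.016 with the replicate block, -0.011 with DESeq2 and the block, -0.016 with the block and nuclear copies added, and -0.067 without replicate number 2. The effect of leaving out 1 library at a time was followed for 18 results of 13 members, not for all members in all comparisons. Among those 18, these log2 fold changes crossed 0: mt-Co1 (-0.22 to 0.22), mt-Rnr1 (-0.68 to 0.0072), mt-Rnr2 (-0.82 to 0.047) and mt-Nd4l (-0.38 to 0.054) with isoproterenol, mt-Rnr1 with LNA1 (-0.15 to 0.76), mt-Cytb (-0.46 to 0.052) and mt-Co2 (-0.48 to 0.075) with LNA2, and mt-Nd4l for LNA2 against LNA1 (-0.53 to 0.064). For all but mt-Co1 the library left out then was 1 of replicate number 2. The cause was not tested. For mt-Tp with LNA2 the range was -0.86 to -0.24, and for mt-Tt with LNA1 -0.65 to -0.35. The mitochondrial share, and the shares of mt-Co1 and mt-Nd1 with isoproterenol, moved by less than 1 SD of the pairs in every alternative run. Depth limits the tRNAs, of which 10 of 22 averaged under 10 counts.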
